A study of Caenorhabditis elegans with 2 samples.

Results

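The ceh genes are homeobox genes of the nematode Caenorhabditis elegans. The set described here was taken from the WBcel235 gene annotation by symbol alone. It holds every protein-coding gene whose symbol is ceh- followed by a number, except the Hox gene ceh-13, and comes to 62 of 19973 protein-coding genes. Binding of the cell-cycle regulator DPL-1 was asked for at each of them.

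Homeobox genes encode transcription factors that bind DNA through a homeodomain. In the worm many of them fix the identity of single neuron types, and others pattern muscle, epidermis, pharynx and early lineages. DPL-1 is the DP protein of the worm, which pairs with E2F factors and acts in the DREAM complex as a repressor of cell-cycle and germline genes.

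DPL-1 was mapped by chromatin immunoprecipitation and sequencing in whole larvae of the first larval stage, males and females pooled. The labels number the 2 samples as biological replicates of 1 group. They give the antibody as dpl-1, and whether it bound the tag or the protein itself is not settled here. Strain OP105 carries wgIs105, an integrated transgene with dpl-1 joined to TY1, EGFP and FLAG tags and with an unc119 rescue, in an unc119(ed3) background. The labels list no lesion of the worm's own dpl-1 and no promoter for the transgene, and they give the age as unknown. A control experiment is named in the labels and was not analysed here. Peak lists hold no read counts, so depth is unknown, and in whole larvae weak binding in all cells and strong binding in few cells cannot be told apart.

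Few ceh genes carried a DPL-1 peak. A gene was called bound when a peak summit fell in its promoter window, which opens 1000 bp before and closes 200 bp after any annotated transcript 5' end. The peaks were the 2797 that the authors kept by irreproducible discovery rate (IDR), which asks whether ranks hold from 1 replicate to the other. They equal the 2797 strongest pooled peaks, so a kept peak need not have a matching summit in each replicate. By this rule 5 of 62 ceh genes were bound, or 8.06% (exact 95% Clopper-Pearson interval 2.67 to 17.8, counting error only), beside 14.3% of all protein-coding genes. That interval includes the share of all genes. The bound genes were ceh-20, ceh-38, ceh-39, ceh-92 and ceh-100. In the 2797 strongest peaks of replicate 1 the count was also 5, beside 14.4% of all genes, and in those of replicate 2 it was 5 again, beside 13.8%. These were the same 5 genes in both replicates (mean 8.06% ± 0, SD, n = 2), though ceh-100 was called through a different summit in each.

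Of the 5 bound genes, 2 had a peak of their own and 3 shared it with a divergent neighbour. The 2 are 40% of the bound ceh genes, beside 1222 of all 2866 bound genes (42.6%). The own peaks lay at ceh-20 and ceh-39, 2 of 62 ceh genes (3.23%), beside 6.12% of all protein-coding genes with a peak in no other gene's window. The shared summits lay in the windows of both ceh-38 and malt-1, both ceh-92 and Y66D12A.7, and both ceh-100 and lips-15. A shared peak cannot be assigned to either gene from its position.

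Sequences at or beside some of these summits, and at summits just below the IDR list, are shown to describe the letters there. They are from the WBcel235 assembly, written 5′ to 3′ on the strand of the ceh gene, and most span 201 bases centred on the summit. Capitals mark letters of an E2F-type site (TTCCCGC or TTCGCGC or TTGCCGC or TTGGCGC) or of a cell-cycle homology region, the CHR (TTTGAA or TTCGAA), found on either strand. The last and the next to last of them lie just below the IDR list and are described further on. At ceh-38 only the stretch upstream of the gene's 5' UTR is printed, which ends before the summit, and the ceh-92 summit and the upstream ceh-100 summit, in UTRs of neighbouring genes, are not printed.
ceh-39 (chrX:1856292-1856492, minus strand): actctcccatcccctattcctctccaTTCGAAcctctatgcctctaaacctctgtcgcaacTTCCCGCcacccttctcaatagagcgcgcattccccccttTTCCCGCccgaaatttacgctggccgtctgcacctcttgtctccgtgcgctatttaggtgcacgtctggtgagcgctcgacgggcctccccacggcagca
ceh-20 (chrIII:6978996-6979196, plus strand): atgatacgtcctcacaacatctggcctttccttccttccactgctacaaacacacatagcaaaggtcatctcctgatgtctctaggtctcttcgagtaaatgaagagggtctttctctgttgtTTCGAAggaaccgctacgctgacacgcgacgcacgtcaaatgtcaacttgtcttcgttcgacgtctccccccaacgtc
ceh-38 (chrII:6951435-6951525, plus strand): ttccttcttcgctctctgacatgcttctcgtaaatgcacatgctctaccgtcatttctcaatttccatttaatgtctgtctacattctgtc
ceh-100, downstream site (chrII:12603812-12604012, minus strand): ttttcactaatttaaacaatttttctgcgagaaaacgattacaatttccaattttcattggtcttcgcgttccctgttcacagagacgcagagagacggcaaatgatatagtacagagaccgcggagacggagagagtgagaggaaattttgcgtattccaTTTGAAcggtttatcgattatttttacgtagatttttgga
ceh-93 (chrX:388867-389067, minus strand): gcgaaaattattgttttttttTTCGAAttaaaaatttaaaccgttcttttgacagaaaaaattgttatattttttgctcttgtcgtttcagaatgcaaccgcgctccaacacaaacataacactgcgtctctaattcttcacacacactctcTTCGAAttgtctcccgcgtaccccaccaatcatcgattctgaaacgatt

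Of the 5 bound sites, only that of ceh-39 held an E2F-type match within 100 bp of the summit (1 of 5, 20%), beside 646 of all 2797 IDR peaks (23.1%). The ceh-39 site held the letters TTCCCGC in 2 places, centred 4 and 36 bp from the summit, and 3.58% of IDR peaks held 2 or more E2F-type matches. A CHR-type match was present at ceh-20, ceh-39 and ceh-92 (3 of 5), beside 52.1% of IDR peaks, so this short motif was common everywhere. The ceh-39 site had a GC content of 58.7%, above 98.7% of the IDR peaks, whose median was 40.8%. GC content was 49.3% at ceh-20, 42.8% at ceh-38, 38.3% at ceh-100 and 33.3% at ceh-92. A match is a description of letters, not evidence of a site in use.

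ceh-39 encodes a ONECUT-type factor of the CUT homeodomain class, and it is known as an X signal element, a gene on X whose dose helps to set the sexual fate of the embryo. Its peak (X:1856234-1856549) had its summit at X:1856392 in an intergenic stretch, 220 bp upstream of the gene's 5' end. The deposited signal, the authors' own value for the strength of a peak on a scale that is not stated, was 96.2 in the IDR list, rank 1058 of 2797. In replicate 1 the site had a signal of 56.6 and rank 1112, and in replicate 2 a signal of 37 and rank 1081. The summits of both replicates lay within 2 bp of the pooled one, the closest agreement in position among the 5 genes. Signals are not comparable between lists, but the ranks put the site in the upper part of each list. The window of the noncoding RNA gene T26C11.10 also holds this summit, so the peak is ceh-39's own only among protein-coding genes.

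ceh-20 encodes a PBC homeodomain protein, the worm relative of Extradenticle and Pbx, which binds DNA together with Hox proteins. The peak (III:6978938-6979253) had an intergenic summit at III:6979096, 788 bp upstream of the single annotated 5' end. Its signal was 86.5 in the IDR list (rank 1190), 56.8 in replicate 1 (rank 1106) and 31.4 in replicate 2 (rank 1284). The replicate summits lay 1 and 12 bp from the pooled one, and no other gene of any biotype had this summit in its window. A weaker summit 146 bp downstream of the 5' end was listed in replicate 1 (signal 13.3, rank 4351) and in the pooled list (13.1, rank 8981) but not in replicate 2. The other PBC genes, ceh-40 and ceh-60, were not bound, and their nearest IDR summits lay 42388 and 80860 bp away.

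ceh-38 encodes another ONECUT-type factor, which is broadly expressed. Its peak (II:6951377-6951692) was the only one of the 5 with its summit inside the ceh gene, in the 5' UTR, 9 bp downstream of the outermost of several 5' ends and 235 bp upstream of malt-1. malt-1 is the worm homologue of the MALT1 paracaspase. The signal was 157 (rank 677) in the IDR list, 95.8 (rank 706) in replicate 1 and 63.7 (rank 634) in replicate 2. The summit was at the same base in replicate 1 as in the pooled data and 55 bp away in replicate 2. The summit lay nearer to ceh-38 than to malt-1 in the IDR list and in both replicates.

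ceh-92 had the strongest peak in its window of all ceh genes, but the summit was nearer to its neighbour. The peak (III:11580642-11580800) had a signal of 196 and rank 549 in the IDR list, 131 and rank 519 in replicate 1, and 64.1 and rank 632 in replicate 2. The summit lay 887 bp upstream of ceh-92 and 235 bp upstream of Y66D12A.7, in the annotated 3' UTR of Y66D12A.6. Of the bound ceh genes it was the one closest to the upstream limit of the window. No class was assigned to ceh-92 here.

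At ceh-100 the replicates placed their strongest summit at different sites. The IDR peak (II:12604255-12604570) had its summit 733 bp upstream of ceh-100 and 27 bp inside lips-15, in the 5' UTR of that gene. Its signal of 35.9 was rank 2425, the weakest of the 5 and near the lowest signal of the list, 30.3. Replicate 1 had this summit at rank 2185 (signal 25.3), whereas replicate 2 listed no summit within 100 bp of it. A downstream summit, 232 bp upstream of ceh-100 and in the lips-15 window as well, was found in replicate 2 at rank 2754 (signal 12.9), in replicate 1 at rank 3935 (14.3) and in the pooled list at rank 2908 (28.9), below the IDR list. Thus ceh-100 was bound in each replicate's strongest peaks through another summit, and only the weaker, downstream site was seen in both.

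**Figure D1:**
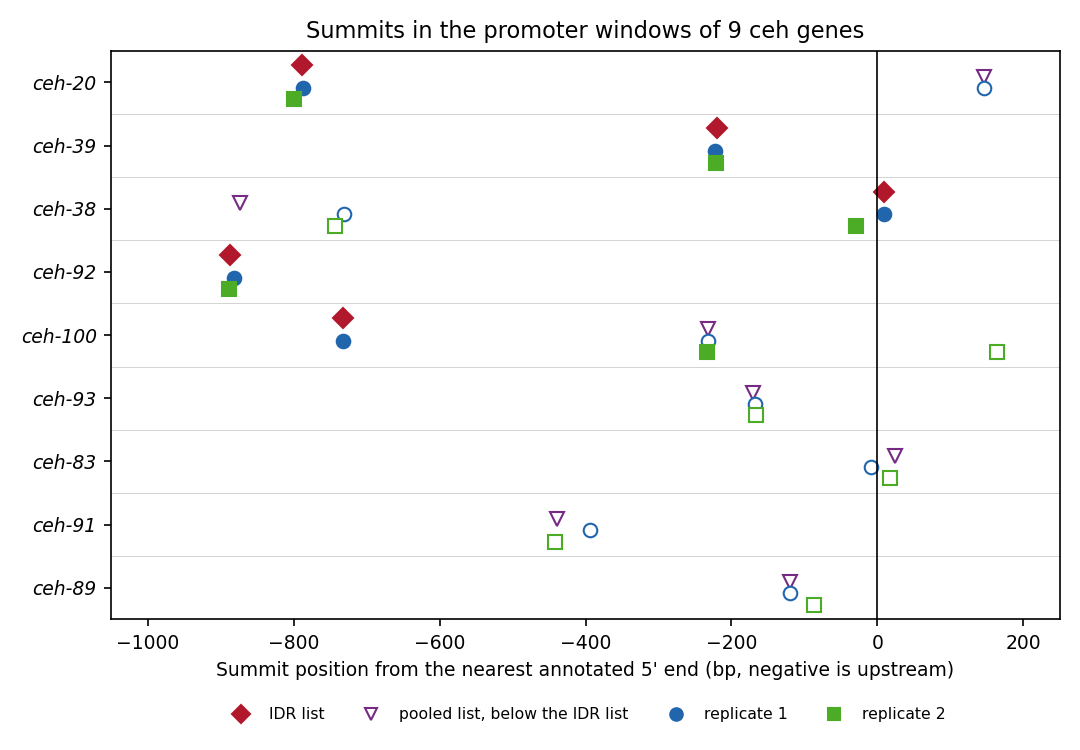
Summit positions (bp from the nearest 5' end, x axis) in the promoter windows of 9 ceh genes (y axis). Diamonds are the IDR list, triangles the pooled list below it, circles replicate 1 and squares replicate 2, and filled symbols are among the 2797 strongest peaks of their list. The summits of ceh-20, ceh-39 and ceh-92 line up across lists, whereas at ceh-100 the IDR summit at 733 bp upstream has no square beside it.

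The strengths of these peaks were ordinary for bound genes. The strongest peak per bound ceh gene ranged from 35.9 to 196 with a median signal of 96.2 (n = 5), beside a median of 95.1 and a highest value of 2461 over all 2866 bound genes. Against all IDR peaks, 13.3% had a lower signal than the ceh-100 peak, 57.5% than that of ceh-20, 62.2% than that of ceh-39, 75.8% than that of ceh-38 and 80.4% than that of ceh-92.

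Just outside the limits of the rule stood a few more genes. At the upstream limit, ceh-92 was inside at 887 bp and ceh-21 outside at 1029 bp. At the IDR threshold, ceh-100 was inside with a signal of 35.9 and ceh-93 outside with 28.2 (rank 2977 of the pooled list). The ceh-93 summit lay 170 bp upstream of the gene in an intergenic stretch, with rank 3354 in replicate 1 (signal 16.2) and rank 3357 in replicate 2 (signal 10.5), and with 2 bp between the replicates' summits. ceh-83 followed with a summit 24 bp downstream of a 5' end, at pooled rank 3693 (signal 22.4), rank 4524 in replicate 1 (signal 13) and rank 3290 in replicate 2 (signal 10.7). Neither summit lay in the window of another protein-coding gene.

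The full, relaxed lists that the authors fed into the IDR step hold 23883 pooled peaks and 30000 peaks per replicate, and by their name they hold background as well as peaks. In these, a summit in the window was listed for 24 of 62 ceh genes in the pooled list (38.7%), beside 41.2% of all protein-coding genes. Replicate 1 listed 29 ceh genes (46.8%), beside 46.6% of all genes, and replicate 2 listed 26 (41.9%), beside 46.3%. Summits within 100 bp of each other in both replicates were found for 9 ceh genes (14.5%), beside 21.1% of all genes. These 9 were the 5 bound genes with ceh-83, ceh-89, ceh-91 and ceh-93. At ceh-91 the ranks were 13712 and 10281 in replicates 1 and 2, and at ceh-89 they were 20070 and 9752, far down both lists.

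The remaining entries in the relaxed lists were mostly seen in a single replicate. Of the 62 genes, 25 (40.3%) had a window summit in 1 replicate only, beside 30.9% of all protein-coding genes. A further 21 (33.9%) had none in the pooled list or either replicate, beside 36.6% of all. The pooled signals of the 19 ceh genes listed there but not bound ran from 9.32 to 28.2 with a median of 11.2, all below the lowest IDR signal of 30.3. For example, ceh-75 ranked 4014 in replicate 1 and was not listed in replicate 2, and ceh-74 ranked 4021 in replicate 2 and was not listed in replicate 1.

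**Figure D2:**
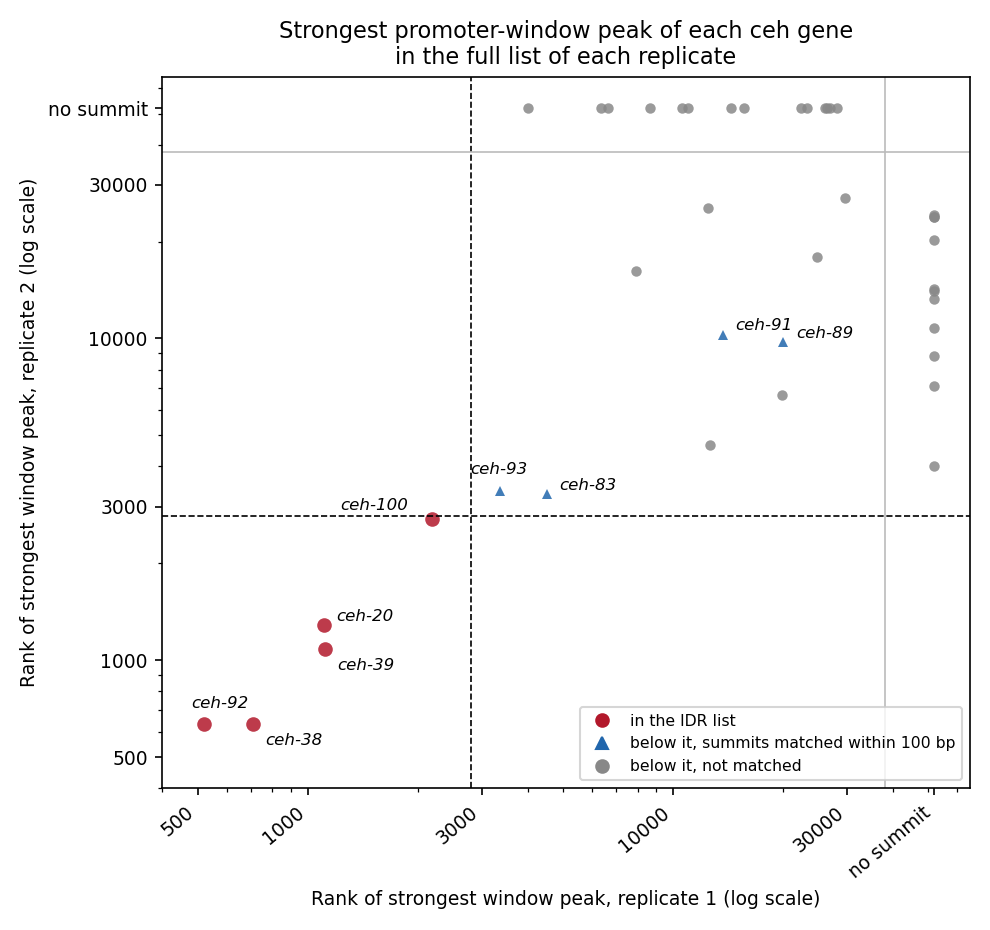
Rank of the strongest window peak of each ceh gene in the full list of replicate 1 (x axis) and replicate 2 (y axis), on log scales where 1 is the strongest. Dashed lines mark rank 2797, grey lines set off genes with no summit in that replicate, and the 21 genes listed nowhere are left out together with any gene listed only in the pooled list. The 5 bound genes (red) are the only ones inside both dashed lines, with ceh-93 and ceh-83 (blue) just beyond them, and the ceh-100 ranks belong to different summits.

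By homeodomain class, the bound genes were 2 of 6 CUT genes (ceh-38 and ceh-39), 1 of 3 PBC genes (ceh-20) and 2 of 24 genes to which no class was assigned here (ceh-92 and ceh-100), beside the 14.3% of all genes. The classes are small, and no test was made between them or against that share. None of the 15 ANTP-class genes was bound. This class holds the NK2-type gene ceh-22 of pharyngeal muscle, the engrailed homologue ceh-16, the Distalless homologue ceh-43, the BarH-type genes ceh-30 and ceh-31, and ceh-1, ceh-2, ceh-5, ceh-9, ceh-12, ceh-19, ceh-24, ceh-27, ceh-28 and ceh-51. None of the 8 paired-like genes was bound either. They include ceh-10 and ceh-36, which specify sensory and interneurons, the Otx-type gene ceh-37, the Phox2 homologue ceh-17, and ceh-8, ceh-45, ceh-53 and ceh-54. The LIM gene ceh-14, the POU genes ceh-6 and ceh-18 and the sine oculis-type genes ceh-32, ceh-33 and ceh-34, which act in pharynx and head, had no IDR summit in their windows.

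In the pooled relaxed list a window summit was found for 6 of 15 ANTP genes and 0 of 8 paired-like genes, beside 41.2% of all genes. The genes with summits within 100 bp of each other in both replicates were 2 of 6 CUT, 1 of 3 PBC and 6 of 24 unassigned genes, beside 21.1% of all genes. The other unassigned genes not bound were ceh-7, ceh-23, ceh-57, ceh-58, ceh-62, ceh-63, ceh-74, ceh-75, ceh-76, ceh-79, ceh-81, ceh-82, ceh-84, ceh-86, ceh-87, ceh-88, ceh-90 and ceh-99.

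The CUT genes next to ceh-39 had IDR peaks around them but not in their windows. On the X chromosome ceh-39, T26C11.9, ceh-21 and ceh-41 follow each other on the minus strand with gaps of 24, 101 and 103 bp, and T26C11.4 comes 1061 bp after ceh-41. IDR summits lay at the start of this row, 220 bp upstream of ceh-39, inside it, and beyond its end. The middle one, in the 5' UTR of T26C11.9 and 84 bp downstream of a 5' end of that gene, had a signal of 38.1 (rank 2318), 25.1 in replicate 1 (rank 2202) and 7.96 in replicate 2 (rank 4833). It lay 1029 bp upstream of ceh-21, outside its window, and was thus not counted. The last one lay 128 bp upstream of T26C11.4 and 3001 bp downstream of the 5' end of ceh-41, with a signal of 114 (rank 919), 61.9 in replicate 1 (rank 1029) and 53.1 in replicate 2 (rank 768). Neither ceh-21 nor ceh-41 had an IDR summit in its own window, which at both reaches into the gene before it. In all, 8 ceh genes (12.9%, beside 18.1% of all genes) start within 500 bp downstream of a gene on the same strand. None of these 8 was bound, beside 10.2% of all such genes. A summit 31 bp downstream of the ceh-21 5' end was listed in replicate 2 alone (signal 6.5, rank 7102). The CUT genes ceh-48, which is active throughout the nervous system, and ceh-49 had their nearest IDR summits 21493 and 12535 bp away.

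**Figure D3:**
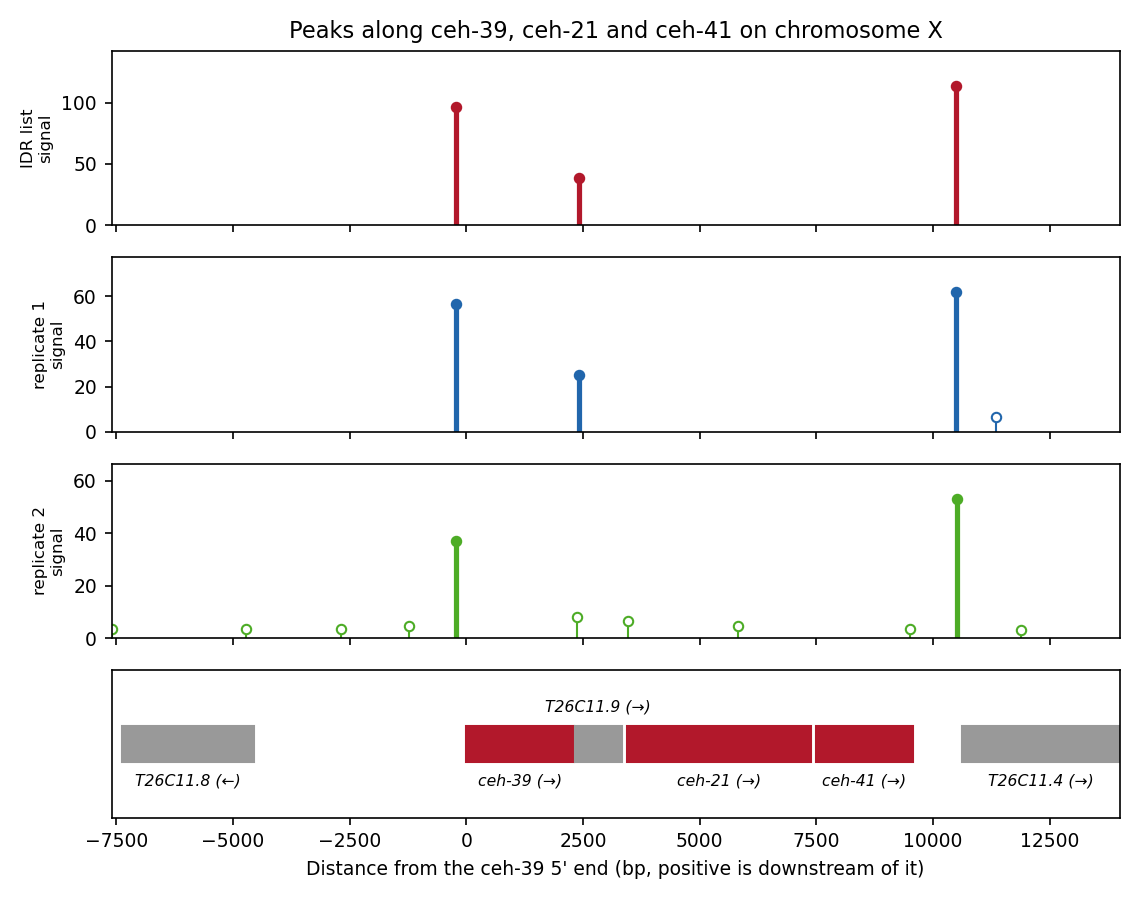
Signal of each peak (y axes, in the authors' units, not comparable between panels) against distance from the ceh-39 5' end (bp, x axis), for the IDR list (top) and the 2 replicates, with protein-coding genes below (ceh genes red, arrows give the direction of transcription). Filled symbols are among the 2797 strongest peaks of their list. The outer peaks are filled in all panels, the one at T26C11.9 only in the IDR list and replicate 1.

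Few ceh genes had an IDR summit near them. The nearest IDR summit lay at a median of 13846 bp from a 5' end of a ceh gene, beside 12209 bp over all protein-coding genes, and within 5 kb for 10 ceh genes (16.1%), beside 30.6% of all genes. Over the 57 genes not bound the median was 17570 bp, and the farthest were ceh-81, ceh-82 and ceh-83, neighbours on chromosome II at 83554 bp or more. No ceh gene had an IDR summit in an intron outside its window, beside 246 of all genes (1.23%). The only IDR peak outside the windows whose nearest 5' end was that of a ceh gene lay 1710 bp upstream of ceh-5, a Vax homologue, with a signal of 71.7 (rank 1397, and ranks 1492 and 1379 in replicates 1 and 2). That summit is in the 3' UTR of eat-16 and in an intron of ocrl-1.

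Many ceh genes lie on X, the chromosome with the lowest bound share. The X chromosome holds 18 of the 62 (29.0%), beside 13.7% of all protein-coding genes, and 6.63% of all genes on X were bound. On X 1 of 18 ceh genes was bound, on II 2 of 13, beside 14.9% of all genes there, and on III 2 of 7, beside 24.3%. On I, IV and V none of 8, 4 and 12 was bound, beside 21.7%, 13.9% and 8.97% of all genes. With each chromosome's own bound share applied to its ceh genes, 8.20 of 62 (13.2%) would be bound, against the 5 counted. Divergent windows, in which the 5' ends of neighbours on opposite strands face away from each other, were found for 10 ceh genes (16.1%), beside 29.2% of all genes. Among genes with a divergent window 3 of 10 ceh genes and 30.3% of all genes were bound, and among the others 2 of 52 ceh genes (3.85%) and 7.73% of all genes. Applying the shares by chromosome and divergent window together gives 6.72 of 62 (10.8%). What part these features have in the count was not tested.

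E2F-type letters were not rare in the windows of ceh genes. Over the whole window of 1000 bp upstream to 200 bp downstream, 26 of 62 ceh genes (41.9%) held one, beside 33.9% of all protein-coding genes and 47.9% of all bound genes. Of the 57 genes not bound, 24 (42.1%) held one, and of the 5 bound genes only ceh-39 and ceh-92 did. Genes with several 5' ends have more sequence searched, which was not corrected for. CHR-type letters occurred in 61 of 62 ceh windows and in 99.0% of all.

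Among homeobox genes with other names, none had an IDR summit in its promoter window. IDR summits inside egl-5, unc-62 and irx-1, outside those windows, are described at the end. A list of 6 Hox genes and 33 other homeobox genes, among them lin-11, mec-3, unc-86 and ttx-3, gave 0 of 39 (exact 95% upper limit 9.03%), in the IDR list as in the strongest peaks of each replicate. This includes ceh-13. Of the 39, 11 had a window summit in the pooled relaxed list, beside 41.2% of all genes. Summits within 100 bp of each other in both replicates were found for 6 of them (lin-39, mab-5, nob-1, lin-11, unc-62 and duxl-1), beside 21.1% of all genes. With the ceh genes the homeobox genes of both lists came to 5 of 101 bound (4.95%, 1.63 to 11.2). Of other transcription factor families, nuclear hormone receptor genes (nhr) gave 14 of 269 (5.20%, 2.87 to 8.58), basic helix-loop-helix genes (hlh) 2 of 25 (8%, 0.984 to 26), forkhead genes (fkh) 0 of 9 and T-box genes (tbx) 0 of 19. All of these shares were below the 14.3% of all genes, and the intervals of the ceh, fkh, hlh and tbx families include that value. Those of the nhr genes, of the 39 homeobox genes with other names and of all 101 lie below it. These intervals hold counting error only, and no test was made.

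**Figure D4:**
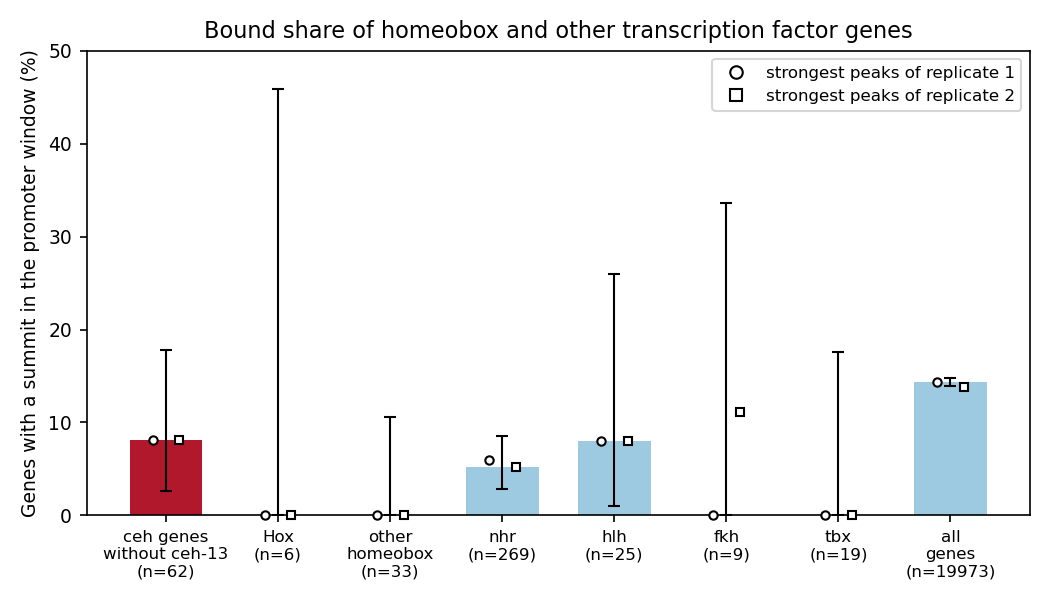
Share of genes with a summit in the promoter window (y axis, percent) for the ceh genes (red) and other groups (blue), with the number of genes under each bar. Bars are the IDR list with exact 95% Clopper-Pearson intervals, and circles and squares are the strongest peaks of replicates 1 and 2. The ceh bar stands at 8.06% in all 3, the Hox and other homeobox bars at 0, and all genes at 14.3%.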

How the data were processed

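The members and lists were chosen with earlier results of these data known. The authors listed peaks together with background in either of the 2 replicates and in both pooled, with 1 control file each time, and drew the IDR list from these, per their file listing. The IDR list equals the 2797 strongest pooled peaks. The aligner, the peak caller and the IDR threshold were not given in the sources used here. Per the deposited files, column 7 is the signal of a peak, on a scale not stated, and column 9 its −log10 q, which was not used. The peak lists hold no read counts, so the depth is unknown.

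Summits (start plus offset, 1-based) on ce11 were assigned to genes of Ensembl release 115 (WBcel235, the same assembly) with Python 3.11.15 and SciPy 1.17.1. All genes whose bound calls are counted were protein-coding. No test was made, since there is 1 group. Assignment was tested on simulated single summits inside the windows of 200 genes or upstream of them, and gave the built-in answer for each. Summits beyond the downstream limit and shared peaks were not simulated. Members were found by symbol. Named were all bound ceh genes, those at the limits, and those with the nearest peaks outside windows. The symbol ceh-44 is not used in this annotation. Nearest genes, windows, thresholds, motif widths and single replicates were varied. The ce10 lists were not used.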

Additional observations from a re-analysis of the deposited data

How the results depend on the processing

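The count of 5 bound ceh genes stayed within 1.5 times under 8 of 10 alternatives, with 5 to 5 when either replicate was left out. In these single-replicate counts ceh-100 was bound through a different summit in each. With a window of 500 bp upstream the count was 2 (ceh-38 and ceh-39, 3.23%, beside 12% of all genes), since the summits of ceh-20, ceh-92 and ceh-100 lie farther out. With each peak given only to the nearest gene it was 3 (4.84%, beside 10.1%), without ceh-92 and ceh-100. With 2000 bp upstream it was 7 (11.3%, beside 17.7%), with ceh-5 and ceh-21 added. Peaks matched in both replicates gave 4 (6.45%, beside 14.1%), without ceh-100. With peaks above the median signal the count was also 4 (6.45%, beside 8.88%). The share stayed below that of all genes under all 10, but these settings reuse largely the same peaks and genes and are not independent. The count of bound ceh genes with an own peak was 2 of 5 (40%, beside 42.6% of all bound genes). With 500 bp upstream it was 1 of 2 (ceh-39, 50%, beside 51.9%), and with 2000 bp 3 of 7 (42.9%, beside 30.4%). When genes of any biotype could share a peak it was 1 of 5 (ceh-20, 20%, beside 35%). With peaks above the median signal it was 2 of 4 (50%, beside 37.1%). Leaving out replicate 1 or replicate 2 kept it at 2 of 5 (40%, beside 43.9% and 41.8%). The share of sites with an E2F-type match was 20% with 50 bp flanks and with TTCCCGC and TTCGCGC alone, beside 17% and 13.8% of IDR peaks. No paired analysis was possible because the series holds 1 group and no test was made. With 62 genes, the interval of the bound share spans 2.67 to 17.8%, which limits what the count can show.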

Other observations

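The letters GAGACGCAG, noticed when the sequences were printed and thus chosen after they were seen, stand within 100 bp of the summit at 3 of the 29 window summits of ceh genes in the pooled list. These are the sites of ceh-100 (downstream site, pooled rank 2908), ceh-93 (rank 2977) and ceh-83 (rank 3693), with the centre of the match 14, 26 and 80 bp from the summit. They are the 3 strongest ceh window summits below the IDR list, and none of the 5 in that list has the letters. Searched on both strands in regions of 201 bases, the letters occur in 382 of 2797 IDR peaks (13.7%), in 3.72% of the pooled peaks below the IDR list that lie in promoter windows, and in 1.33% of regions centred on the outermost 5' end of each protein-coding gene. No factor was assigned to these letters and no test was made.

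Outside the promoter windows, IDR summits lay within the Hox gene egl-5 in 5 places, with signals of 1211, 1200.4, 504, 206 and 47.7. The 4 strongest of these were above the highest signal in a ceh window, 196 at ceh-92. Single summits lay within unc-62 (signal 31.1), which encodes a Meis-type partner of CEH-20, and irx-1 (signal 43.5). Within the bodies of the 62 ceh genes the only IDR summit was that of ceh-38. The share of all protein-coding genes with an IDR summit in the gene body was not counted. These numbers thus do not show whether homeobox genes have few or many.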
